A study of Mus musculus with 6 samples.

Results

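The Irx and Zic genes of the neural plate were read from the deposited RNA-seq table of mouse embryonic stem cells (ESCs) and of the neuronal cells (NCs) made from them. They comprise 9 gene names, Irx1, Irx2, Irx3, Irx5, Irx6, Zic1, Zic2, Zic4 and Zic5, taken by name from 22969 gene names (23235 entries). Each had 1 entry in the table, with 1 value for ESCs and 1 for NCs. Both values are FPKM, the fragments assigned to a gene divided by the length of its transcript and by the size of the library, so levels of different genes can be set side by side.

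Irx genes encode homeodomain transcription factors of the TALE class, in which an extended loop parts the helices of the homeodomain, and in mammals they lie in a pair of chromosomal clusters. In the early neural plate they act as prepattern genes that mark out broad territories, including the midbrain, the hindbrain and the intermediate spinal cord, before proneural genes come on. Zic genes encode zinc finger factors related to the Gli proteins, several of them lie head to head in the genome, and they are known for holding neural progenitors in an undifferentiated state and for building the dorsal neural tube and the neural crest.

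The study grew E14Tg2a, an established line of mouse ESCs, at passages 37 to 40. ESCs were held in medium with leukemia inhibitory factor (LIF), and NCs were monolayers of the same line that had received 1 μM retinoic acid (RA) for 48 h in the absence of LIF, so LIF withdrawal and RA came together and cannot be told apart. Each condition gave 3 samples of total RNA, and the authors merged them into 1 value per gene and condition. These values hold no spread between samples, the authors' own comparison was not used, and no test was run. A gene was counted as higher or lower in NCs when its FPKM differed at least 2-fold and reached 1 in at least 1 condition.

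The depth of the samples is unknown. It was estimated from the steps at which the lowest values crowd, with an assumed fragment length of 200 bases. A single fragment per kilobase was taken as 0.0120 or 0.0138 FPKM (ESCs) and as 0.00715 or 0.0136 FPKM (NCs). Of the lowest values, 67.2% in ESCs and 67.7% in NCs lay near a step. Whether each step stands for a single fragment was not tested. The estimate is used below to judge how few fragments stand behind a low value. FPKM summed to 770592 in ESCs and 628679 in NCs. Rescaling both conditions to the same sum moved every log2 ratio up by 0.29, and the median log2 ratio was -0.03 over the 13292 gene names that reached 1 FPKM. The label of the NCs was checked against marker lists. Of 12 pluripotency genes, 11 were lower in NCs, and of 14 neural progenitor and neural plate genes that reached 1 FPKM, 9 were higher and 2 were lower. Of 6 markers of postmitotic neurons that reached 1 FPKM, 0 were higher and 3 were lower, among them Stmn2, a microtubule regulator of growing axons, with 142 FPKM in ESCs against 11.8 FPKM in NCs. Dcx, a marker of migrating neurons, had a higher value in NCs but stayed under 1 FPKM (0.0140 in ESCs, 0.334 in NCs). The NCs are called so after their label, and no postmitotic neuron marker that reached 1 FPKM was higher in them.

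By direction alone, without fold limit or filter, the Irx genes and Zic1 and Zic4 (chromosome 9) had a higher FPKM in NCs. Zic2 and Zic5 (chromosome 14) had a lower one. The share of all gene names with a higher value was not counted, and the median log2 ratio over names that reached 1 FPKM was -0.03. Irx6 (0.00631 FPKM in ESCs) and Zic4 (0 in ESCs) lay at the edge of detection, so the direction on chromosome 9 rests on Zic1. Of the 9 genes, 7 reached 1 FPKM in a condition. Among these, 5 (Irx1, Irx2, Irx3, Irx5 and Zic1) were at least 2-fold higher in NCs, against a background of 12.5% of the 13292 gene names. Zic5 was at least 2-fold lower, against a background of 10.6%, and Zic2 stayed within 2-fold. After rescaling, 70.6% of the gene names called in either direction were higher, compared with 54.0% as deposited, and Zic5 was no longer 2-fold lower. Irx1, Irx3, Irx5 and Zic1 were at least 8-fold higher, a limit set after the values were seen, against a background of 2.79%. The median log2 ratio of the 7 genes was 3.55. Irx1, Irx3, Irx5 and Zic1 were under 1 FPKM in ESCs, so they passed the filter only through NCs, where they were higher. The counts of higher genes and this median depend on that, and Irx2 alone of the genes called higher also passed in ESCs. Irx6 and Zic4 stayed under 1 FPKM in both conditions. In RNA from whole cultures, more cells that express a gene and more RNA of it per cell cannot be told apart.

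**Figure D1:**
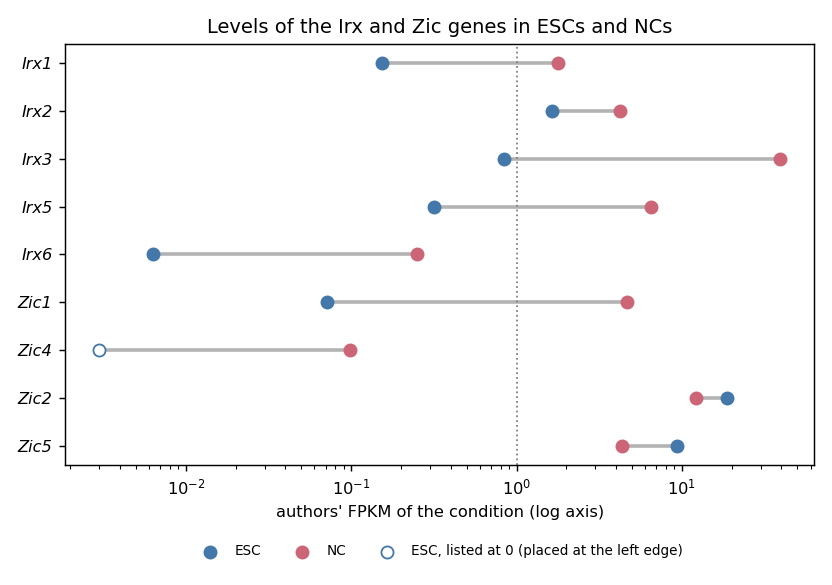
FPKM of each gene in ESCs (blue) and NCs (red) on a log axis, 1 pooled value per condition, with a dotted line at 1 FPKM. The 5 Irx genes, Zic1 and Zic4 lie farther right in NCs, Zic2 and Zic5 lie farther left, and Zic4 is listed at 0 in ESCs (open circle).

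Sequence is shown here for Irx3, which had the highest NC level of the 9 genes and is the one the study chose for RT-qPCR, and for the promoters of 3 genes that differ in the way they moved. In the orientation of the Irx3 transcript, the Irx3 primers matched both annotated Irx3 transcripts and no other gene. Matches in the opposite orientation, as in the antisense gene Irx3os, were not searched. The forward primer lies at chr8:91800490-91800510 and the reverse primer at chr8:91800183-91800201 (GRCm38, gene on the minus strand), both within the coding sequence in exon 2 of 4, and the product spans 328 bases.
Irx3 forward primer: aagaaggagaacaagatgacg
Irx3 reverse primer: cgtccgagtcgctagtttt

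RefSeq promoters of GRCm38.p6, each of 300 bases around a gene's start, were matched for 5 of the 9 genes (Irx2, Irx3, Zic1, Zic4 and Zic5). For Irx3, Zic1, Zic4 and Zic5 the RefSeq start differs from the GENCODE start used for distances, most for Zic4 and Irx3. The stretches below are the 200 bases just upstream of the GENCODE starts of Zic1 (chr9:91365811-91366010, minus strand), Irx2 (chr13:72628620-72628819, plus strand) and Zic5 (chr14:122465678-122465877, minus strand). Each CpG dinucleotide is in capitals. The stretches hold 26, 15 and 11 CpGs in turn.
Zic1: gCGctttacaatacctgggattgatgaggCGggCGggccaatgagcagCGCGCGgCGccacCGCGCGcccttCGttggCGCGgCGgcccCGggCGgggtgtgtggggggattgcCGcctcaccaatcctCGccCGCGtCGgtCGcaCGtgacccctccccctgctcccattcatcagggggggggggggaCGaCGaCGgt
Irx2: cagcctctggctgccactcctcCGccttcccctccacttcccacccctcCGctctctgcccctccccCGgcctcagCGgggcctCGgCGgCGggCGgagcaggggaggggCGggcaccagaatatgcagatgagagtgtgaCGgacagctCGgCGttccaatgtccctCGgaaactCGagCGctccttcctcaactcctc
Zic5: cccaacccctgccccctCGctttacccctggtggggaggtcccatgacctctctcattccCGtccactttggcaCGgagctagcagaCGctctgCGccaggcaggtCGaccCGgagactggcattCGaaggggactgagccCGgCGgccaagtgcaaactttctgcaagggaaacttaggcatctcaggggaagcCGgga

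Over the whole promoters, Zic1 had 31 CpGs, Irx2 25, Zic5 15, Irx3 14 and Zic4 8, compared with a median of 7 over 27025 genes with a RefSeq promoter. Zic1, at 0.0717 FPKM in ESCs, had a denser CpG promoter than 89.7% of genes. Zic5, at 9.37 FPKM in ESCs, had a denser one than 64.8%. The half-site letters AGGTCA or GGTTCA, repeated in the same direction with 2 or 5 bases between (the spacings of classic RA response elements), were searched on both strands. They were found in 0 of the 5 promoters, and in 0.178% (2 bases) and 0.0148% (5 bases) of all genes. AGGTCA alone occurred once in the Zic5 promoter and in 16.0% of genes. CCAAT occurred in the Zic1 promoter 2 times and in the Irx2 promoter 1 time, and in 37.9% of genes. TATAAA occurred in none of the 5 promoters and in 14.2% of genes. RA response elements often lie far from a start, and these windows hold only the nearest bases.

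Irx3 and Irx5 are neighbours on chromosome 8, at chr8:91798525-91802067 (minus strand) and chr8:92357625-92376286 (plus strand), with 556 kb between their starts. Irx3, a factor of the neural plate that later helps to set ventral progenitor domains of the spinal cord, was at 0.835 FPKM in ESCs against 39.4 FPKM in NCs. This is a 47.2-fold higher level (log2 ratio 5.56), and Irx3 moved from percentile 44.9 to percentile 89.9 among all gene names. Irx5, which acts with Irx3 in several tissues, was at 0.317 FPKM in ESCs against 6.52 FPKM in NCs, 20.6-fold higher (log2 ratio 4.36). The step estimate puts 51.7 to 62.2 fragments behind the ESC value of Irx5 and 146 to 178 behind that of Irx3. Both genes were thus measurable in ESCs, and neither reached 1 FPKM there.

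Irx6, the distal gene of the same cluster at chr8:92674288-92680956 (plus strand), encodes another homeodomain factor of the family. It was at 0.00631 FPKM in ESCs against 0.249 FPKM in NCs. The plain ratio was 39.5, but the ESC value rests on an estimated 1.20 to 1.67 fragments, and the NC value on 48.2 to 111. Against a level of 3 fragments in ESCs, or 0.0157 FPKM, the NC value was 15.8-fold higher. Irx6 was thus barely detectable in ESCs, and its NC level lay far under those of Irx3 and Irx5.

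Irx1 and Irx2 lie on chromosome 13, at chr13:71957921-71963723 (minus strand) and chr13:72628820-72634198 (plus strand), with 665 kb between their starts. Irx1, a factor of the midbrain, hindbrain and other tissues, was at 0.153 FPKM in ESCs against 1.79 FPKM in NCs, 11.7-fold higher (log2 ratio 3.55). Irx2, which is expressed together with Irx1 in many tissues, was at 1.64 FPKM in ESCs against 4.21 FPKM in NCs, 2.57-fold higher (log2 ratio 1.36). Irx2 was the only one of the 5 Irx genes over 1 FPKM in ESCs, and with a pseudocount of 1 its log2 ratio was 0.98, just under the 2-fold limit. Irx2 had the highest ESC level and the smallest ratio of the Irx genes.

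Zic1 lies on chromosome 9 at chr9:91358058-91365810 (minus strand), and Zic4 at chr9:91362413-91389348 (plus strand). Their starts lie 3.40 kb apart on opposite strands and their spans overlap. Zic1, a factor of the dorsal neural tube, the neural plate border and the cerebellum, was at 0.0717 FPKM in ESCs against 4.68 FPKM in NCs. This was 65.3-fold higher (log2 ratio 6.03), the highest ratio among the members that reached 1 FPKM. An estimated 13.6 to 32.4 fragments stand behind the ESC value, so the ratio carries a wide counting error. Zic4, which works beside Zic1 in cerebellar development, is listed at 0 for ESCs and reached 0.0989 FPKM in NCs, from an estimated 10.1 to 51.1 fragments. No ratio is given for Zic4. Exons of the 2 genes share 60 bases, and the strand setting of the counting was not given in the sources used here, so fragments in those bases cannot be assigned to Zic1 or Zic4 with certainty. Zic4 exons also share 468 bases (4.53%) with Gm37477, a gene on the opposite strand with no entry under that name in the table.

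Zic2 and Zic5 lie on chromosome 14 at chr14:122475435-122479852 (plus strand) and chr14:122456795-122465677 (minus strand), head to head with 9.76 kb between their starts. Zic2, a factor of the early epiblast and neural plate whose loss causes holoprosencephaly, was at 18.9 FPKM in ESCs against 12.1 FPKM in NCs, 1.56-fold lower (log2 ratio -0.64). Zic5, which acts in neural tube closure and neural crest development, was at 9.37 FPKM in ESCs against 4.34 FPKM in NCs, 2.16-fold lower (log2 ratio -1.11). They had the highest ESC levels of the 9 genes and moved in the same direction. The Zic5 ratio lies close to the limit, and its log2 ratio was -0.96 with a pseudocount of 1 and -0.82 after rescaling, both within 2-fold.

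**Figure D2:**
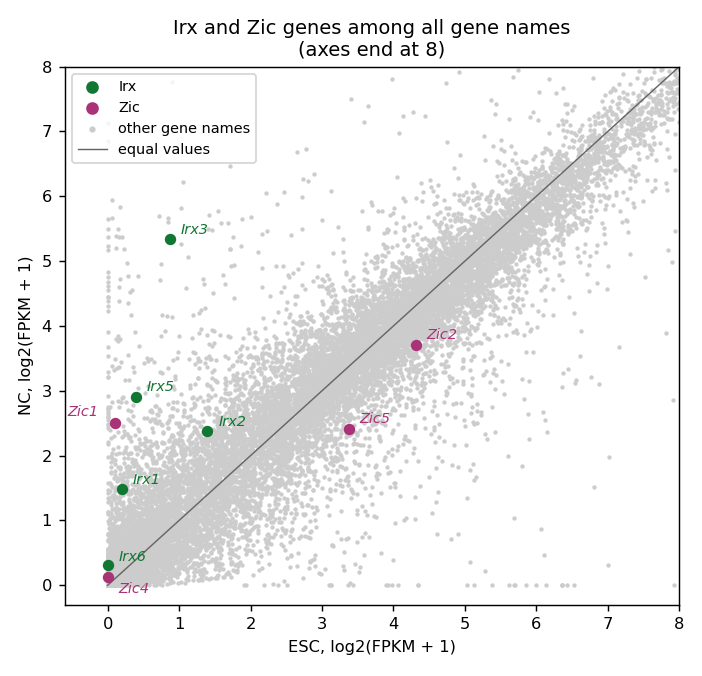
Each gene name plotted by log2(FPKM + 1) in ESCs (horizontal) and NCs (vertical), with Irx genes in green, Zic genes in purple and a line of equal values. Irx1, Irx2, Irx3, Irx5 and Zic1 lie over the line, Zic2 and Zic5 under it, and Irx6 and Zic4 near the origin.

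The order of the levels differed between the conditions. In ESCs it ran from Zic2 through Zic5, Irx2, Irx3, Irx5, Irx1, Zic1 and Irx6 to Zic4. In NCs Irx3 came out on top, followed by Zic2, Irx5, Zic1, Zic5, Irx2, Irx1, Irx6 and Zic4. With 1 value per condition, no spread is known by which neighbours in either order could be told apart. Zic1 at 4.68, Zic5 at 4.34 and Irx2 at 4.21 FPKM were the closest neighbours in NCs. Only 3 of the 9 genes (Zic2, Zic5 and Irx2) were at 1 FPKM or more in ESCs, and 7 were in NCs.

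The make-up of the summed levels shifted as well. The 5 Irx genes summed to 2.95 FPKM in ESCs against 52.2 FPKM in NCs, 17.7-fold higher. Irx2 gave 55.5% of the sum in ESCs and 8.07% in NCs, while Irx3 gave 28.3% in ESCs and 75.5% in NCs. The cluster on chromosome 8 summed to 1.16 FPKM in ESCs against 46.2 FPKM in NCs, 39.9-fold higher, and that on chromosome 13 to 1.79 and 6.0 FPKM, 3.36-fold higher. The 4 Zic genes summed to 28.3 FPKM in ESCs against 21.2 FPKM in NCs, 1.33-fold lower, or 1.09-fold lower after rescaling. Zic1 gave 0.253% of the Zic sum in ESCs and 22.0% in NCs, as the share of Zic2 went from 66.6% to 57.1% and that of Zic5 from 33.1% to 20.4%. These sums hold the genes described here and no other member of either family.

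**Figure D3:**
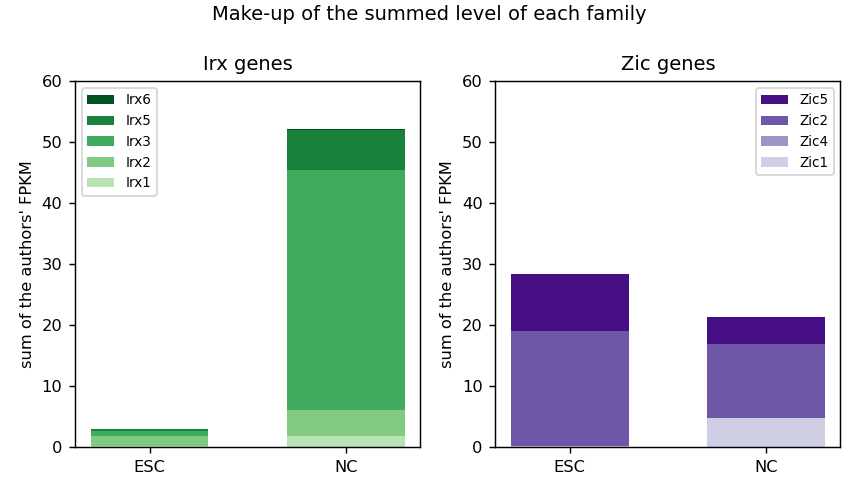
Sum of FPKM over the 5 Irx genes (left, green) and the 4 Zic genes (right, purple) in ESCs and NCs, with each gene as a segment. Irx3 makes up most of the Irx bar in NCs, and a Zic1 segment of 4.68 FPKM appears in the Zic bar in NCs as the segments of Zic2 and Zic5 shrink.

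Reads that match more than 1 gene could blur these values. Of the words of 50 bases in the longest transcripts, 1.48% in Irx3, 1.17% in Irx6, 0.680% in Irx5 and 0.621% in Irx2 occurred in another Irx transcript. Irx1, Zic1, Zic2 and Zic4 shared none with another annotated gene. Zic5 shared 7.65% of its words with Gm12241, a processed pseudogene with no entry under that name in the table, so part of the Zic5 level is uncertain. Irx3 exons share 124 bases (4.49%) with its antisense gene Irx3os, and Irx6 exons share 152 bases (4.51%) with the antisense gene Gm45505. Neither has an entry under that name, and without strand their fragments would not be separable from those of Irx3 and Irx6.

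Neighbours of the members that reached 1 FPKM lay on chromosomes 8 and 14 alone. The annotation places 94 other genes within 500 kb of a member, of which 25 are in the table and 13 reached 1 FPKM. Of these 13, 0 were at least 2-fold higher in NCs and 2 were lower, with log2 ratios from -1.25 to 0.90. After rescaling, 1 was higher and 0 were lower. Around Irx3, Irx5 and Irx6, all 5 such genes stayed within 2-fold before rescaling. Fto, the RNA demethylase gene whose introns are known to hold enhancers of Irx3, was at 26.8 FPKM in ESCs against 34.0 FPKM in NCs, 1.27-fold higher. Rpgrip1l, a gene of the primary cilium next to Fto, was at 1.24 and 2.30 FPKM, and it is the gene that passed the limit after rescaling. Mmp2, a matrix metalloprotease, was at 24.4 and 34.4 FPKM, and Lpcat2, a phospholipid enzyme, at 1.15 and 1.44 FPKM.

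Several noncoding genes start beside a member on the opposite strand. Crnde, a long noncoding RNA listed under its older name 4933436C20Rik, starts 1505 bases from Irx5 and was at 3.09 FPKM in ESCs against 2.13 FPKM in NCs, 1.45-fold lower where Irx5 was 20.6-fold higher. Next to Zic2, 2610035F20Rik starts 236 bases away and was at 1.84 and 1.10 FPKM, 1.68-fold lower beside the 1.56-fold lower level of Zic2. Gm20554, whose start lies 256 bases from that of Irx2, was at 0.0464 and 0.170 FPKM, under the limit of 1 FPKM in both conditions. The Irx2 stretch printed above lies between those starts.

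The 2 neighbours that were lower in NCs both lie in the Zic2 and Zic5 region of chromosome 14. Clybl, a mitochondrial enzyme gene, was at 35.0 FPKM in ESCs against 14.7 FPKM in NCs, 2.38-fold lower. Timm8a2, related to a mitochondrial import chaperone, was at 1.63 and 0.693 FPKM, 2.36-fold lower. The other genes of that region, Ubac2, Tm9sf2, Pcca, Ggact and Tmtc4, stayed within 2-fold. On chromosome 9 none of 16 annotated neighbours of Zic1 and Zic4 is in the table, and on chromosome 13 neither of the 2 in the table reached 1 FPKM.

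**Figure D4:**
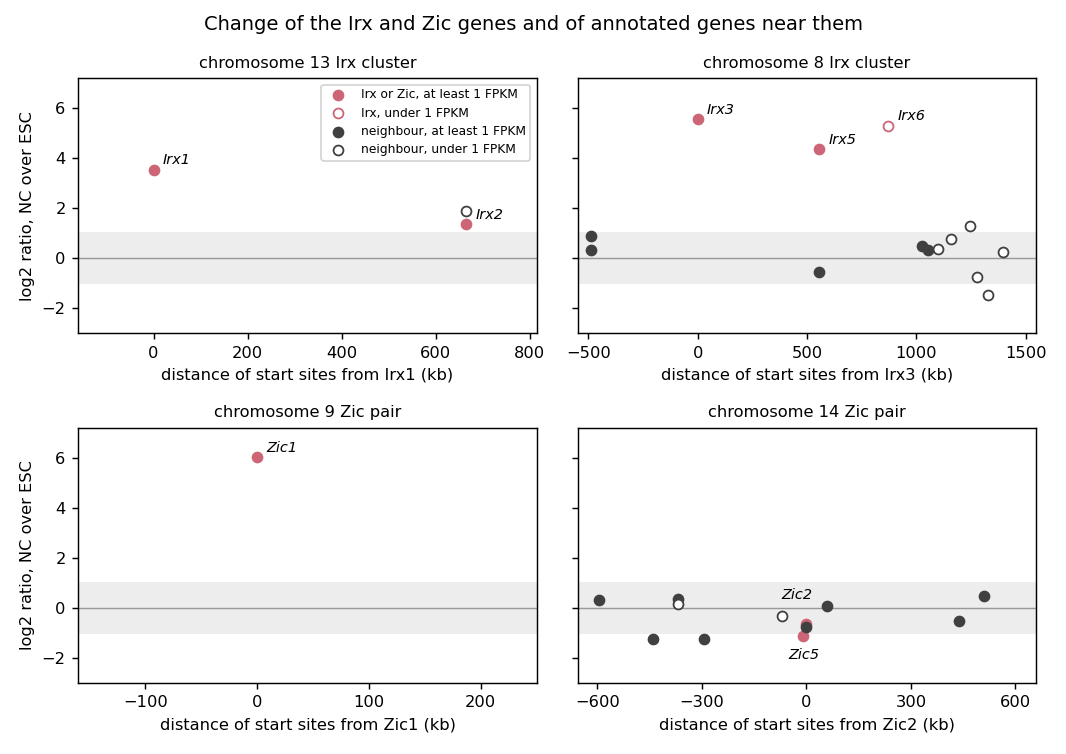
Log2 ratio of NC over ESC (vertical) for members (red) and annotated genes within 500 kb (black), by distance of their starts in kb from Irx1, Irx3, Zic1 or Zic2, with a grey band for ratios within 2-fold and open circles for genes under 1 FPKM. On chromosome 8, Irx3, Irx5 and Irx6 lie over every drawn neighbour, on chromosome 14 Zic2 and Zic5 lie among theirs, no neighbour has a value on chromosome 9, and genes at 0 in a condition, such as Zic4, have no ratio and are not drawn.

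The genes whose pair of values was most like that of Irx3, by Euclidean distance on log2(FPKM + 1) over the 2 conditions, were Sfrp5, Meis1 and Zfp703. Sfrp5, a secreted Wnt antagonist, was at 1.03 FPKM in ESCs against 37.5 FPKM in NCs (distance 0.16). Meis1, a TALE homeobox cofactor of Hox proteins, was at 0.805 and 47.4 FPKM (distance 0.26), and Zfp703, a zinc finger repressor, at 0.794 and 49.6 FPKM (distance 0.33). Nearest to Zic2 were Mut, C2cd5 and Macf1, with distances from 0.01 to 0.05. Mut was at 19.0 and 12.2 FPKM. A pair of values is matched by many genes, above all near the line of equal values, so these names describe levels only.

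The wider families of both groups were set beside them. Of 12 other TALE homeobox genes, 7 were at least 2-fold higher in NCs and 0 were lower, with a median log2 ratio of 1.34. Meis2 was at 0.649 FPKM in ESCs against 50.7 FPKM in NCs, a pattern like that of Irx3. At the low end, Tgif1, a repressor in TGF-beta signalling, was at 117 and 63.8 FPKM, and Pbx4 at 6.29 and 3.40 FPKM, both within 2-fold. Of 6 Gli and Glis genes, the zinc finger relatives of Zic, 4 were higher and 0 were lower, with a median of 1.63. Gli3, a mainly repressive effector of hedgehog signalling in dorsal neural tissue, was at 2.11 and 10.6 FPKM and Glis2 at 9.11 and 27.4 FPKM. Gli2 (8.05 and 7.26 FPKM) and Gli1 (12.9 and 11.9 FPKM) kept their levels within 2-fold.

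Lists of neural territories place the Irx and Zic levels among other regional genes. All 11 hindbrain and spinal cord factors that reached 1 FPKM were higher in NCs, with a median log2 ratio of 6.92. Hoxb2 was at 0.508 FPKM in ESCs against 107 FPKM in NCs, Hoxb1 at 0.126 and 56.1 FPKM, and Cdx1 at 0.598 and 3.58 FPKM. Irx3 and Irx5, with log2 ratios of 5.56 and 4.36, thus lay under that median. Of 14 forebrain and midbrain regional factors, 6 reached 1 FPKM, of which 3 were higher and 2 were lower. Otx2, the main factor of the anterior neural plate, was at 37.8 FPKM in ESCs against 0.166 FPKM in NCs, and Hesx1 at 2.02 and 0.614 FPKM. Lhx2 was at 0.222 and 2.91 FPKM and Emx2 at 0.0421 and 1.87 FPKM.

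Of 14 neural plate border and neural crest genes that reached 1 FPKM, 11 were higher and 2 were lower, with a median of 2.39. Zic1 is itself known at the neural plate border. Msx1 was at 0.117 FPKM in ESCs against 5.75 FPKM in NCs and Tfap2b at 0.0332 and 3.0 FPKM, levels near those of Zic1 in both conditions. Tfap2c (34.0 and 4.59 FPKM) and Foxd3 (4.70 and 0.334 FPKM), which ESCs are known to express, were lower in NCs, as was Zic5. In the neural progenitor list, Pax6 was at 3.64 and 65.2 FPKM and Cdh2 at 2.28 and 35.5 FPKM, whereas Sox2, which is also a pluripotency factor, was at 258 and 74.1 FPKM and Fabp7 at 1.11 and 0.421 FPKM.

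Of 14 RA response genes, 10 were higher in NCs and 0 were lower, with a median of 3.79. Cyp26a1, which clears RA, was at 0.874 FPKM in ESCs against 215 FPKM in NCs, and Stra8, an RA target of germ cells, at 5.15 and 340.2 FPKM. The receptors Rarg (33.5 and 17.0 FPKM) and Rara (21.2 and 18.0 FPKM) stayed within 2-fold. The 12 pluripotency genes had a median log2 ratio of -3.88, against -0.64 for Zic2 and -1.11 for Zic5. Tdgf1 was at 564 and 1.10 FPKM, Fgf4 at 65.7 and 0.818 FPKM, and Prdm14 at 4.88 and 0.217 FPKM, while Tbx3, at 7.37 and 4.81 FPKM, had a ratio like that of Zic2.

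Markers of other lineages also differed between the conditions, and their part in the Irx and Zic levels was not tested. Of 8 endoderm genes that reached 1 FPKM, 6 were higher in NCs and 1 was lower, and the list of 10 summed to 10.3 FPKM in ESCs against 31.0 FPKM in NCs. Foxa1 was at 0.227 and 8.02 FPKM and Foxa2, also a factor of the floor plate, at 0.617 and 5.24 FPKM, while Gata4 (3.30 and 3.69 FPKM) stayed within 2-fold and Hnf4a (1.21 and 0.430 FPKM) was lower. Of 4 mesoderm genes, 1 was higher (Meox1, 0.253 and 5.43 FPKM) and 1 was lower (Tcf15, 36.4 and 5.37 FPKM), and the list of 10 summed to 41.7 and 14.7 FPKM. Of 6 trophoblast genes, 3 were higher and 1 was lower, among them Gata3 (0.204 and 4.02 FPKM), Krt18 (45.7 and 103 FPKM) and Ascl2 (2.65 and 0.899 FPKM). No marker of these 3 lists was at 0 in either condition.

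**Figure D5:**
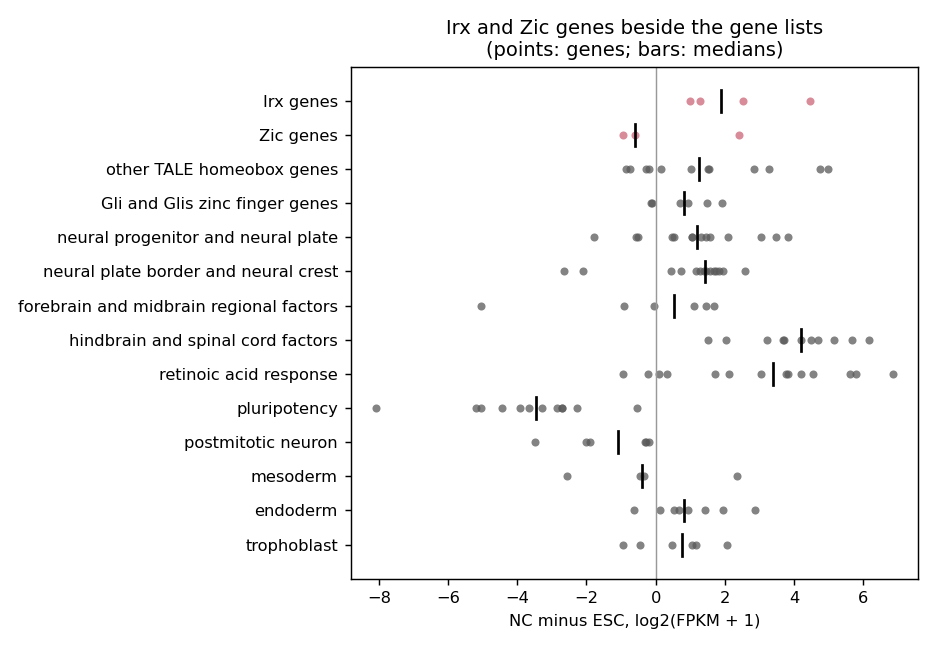
Difference of log2(FPKM + 1), NC minus ESC, for the Irx and Zic genes (red) and the genes of each list (grey) that reached 1 FPKM in a condition, with a black bar at each median. The Irx genes lie right of 0, the Zic genes on both sides, the hindbrain and RA response genes farther right and most pluripotency genes far to the left.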

How the data were processed

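RNA was sequenced from 3 ESC and 3 NC samples with the TruSeq kit on an Illumina HiSeq instrument. According to the submitters' processing notes and the study's methods, the authors aligned reads to mm10 with TopHat 2.0.8 and Bowtie 2.1.0, assembled transcripts with Cufflinks 2.0.2 and ran Cuffdiff over the replicates. The authors deposited 1 FPKM value per gene and condition, which was used as deposited; the heading of the NC column reads FPK and was taken as FPKM, as its values have the same scale. The 4 columns of the authors' own comparison (a log2 ratio, its test statistic, the p-value and the adjusted p-value) and their status flags were not used. Strand, annotation release and library depth were not given in the sources used here.

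Entries of a repeated name were summed. Ratios are NC over ESC without a pseudocount, and calls took a 2-fold limit and 1 FPKM in at least 1 condition. limma had been chosen for values per replicate, and the table holds none, so it was not run. Positions and words of 50 bases came from GENCODE M21 (GRCm38, the assembly mm10 denotes) and promoters from RefSeq. Text names all 9 members, neighbours within 500 kb that reached 1 FPKM, the 2 highest and 2 lowest genes of each list by log2(FPKM + 1) difference, and the 3 genes nearest to Irx3 and Zic2. Gm20554 and genes named for sharing sequence fall outside that rule and were chosen after values were seen. Members and lists were chosen with earlier results of these data known. Other entries of both families, and a gene the rule names, are not reported here. The code that makes the fold calls was tested on simulated data. How counting error at low FPKM bears on the calls was not tested. Python 3.11.15, numpy 2.4.6, pandas 2.3.3 and matplotlib 3.10.9 were used. Alternatives were other pseudocounts, filters, fold limits, centring, rescaling and the handling of repeated names.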

Additional observations from a re-analysis of the deposited data

How the results depend on the processing

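No paired analysis was possible because the table holds 1 pooled value per condition, and no replicate was left out for the same reason. Precision between cultures cannot be read from the values used, and depth limits Irx6, Zic4 and the ESC level of Zic1 most. None of the 8 members with a log2 ratio changed direction after centring or rescaling. Zic2, whose log2 ratio was the smallest in size, went from -0.64 to -0.59 after centring and to -0.34 after rescaling. The other alternatives were no test of direction. A pseudocount added to both values keeps the sign, filters and fold limits leave the ratio as it is, and each member has 1 entry. Rescaling, which added 0.29 to every log2 ratio, turned the slightly negative ratios of Gli1, Gli2 and Rara positive. It did the same to the median over the gene names that reached 1 FPKM. Centring on the median log2 ratio and another handling of repeated names changed no result by more than 1.5 times.

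A pseudocount of 0.1 FPKM lowered the log2 ratio of Irx1 to 2.90, of Irx6 to 1.72 and of Zic1 to 4.80. A pseudocount of 1 FPKM gave 1.28 for Irx1, 0.98 for Irx2, 4.46 for Irx3, 2.51 for Irx5, 0.31 for Irx6, 2.41 for Zic1 and -0.96 for Zic5, since it weighs most on low values. Rescaling gave -0.82 for Zic5, and the floor of 3 fragments, added after the data were seen, gave 3.99 for Irx6.

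Members at least 2-fold higher numbered 2 with a filter of 5 FPKM. Members lower numbered 2 at a fold limit of 1.5, and 0 at fold limits of 4 and 8 (the latter added after the data were seen), with a pseudocount of 1 and after rescaling.

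Over all gene names, 3852 were higher without a filter, 2640 with a filter of 0.1 FPKM and 821 with one of 5 FPKM. At fold limits of 1.5, 4 and 8 the numbers were 2740, 678 and 371, and with a pseudocount of 1 it was 1073. Lower were 2877 without a filter and 863 with a filter of 5 FPKM, and 2572, 488 and 209 at fold limits of 1.5, 4 and 8.

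Counts in the lists moved as follows. Without a filter and with one of 0.1 FPKM alike, 5 forebrain and midbrain factors, 1 neuron gene and 2 mesoderm genes were higher, and 2 hindbrain and spinal cord factors and 2 mesoderm genes were lower. With a filter of 5 FPKM, the higher counts were 3 for border and crest, 0 for forebrain and midbrain, 2 for Gli and Glis and 3 for endoderm, and the lower counts were 1 for neural progenitor, 1 for border and crest, 1 for forebrain and midbrain, 0 for endoderm and 0 for trophoblast. At a fold limit of 1.5, the lower counts were 1 for RA response, 2 for other TALE, 3 for mesoderm and 2 for trophoblast. At a limit of 4, the higher counts were 4 for other TALE, 1 for Gli and Glis, 3 for endoderm and 1 for trophoblast, and the lower counts were 0 for neural progenitor, 1 for forebrain and midbrain, 0 for endoderm and 0 for trophoblast. At a limit of 8, the higher counts were 3 for neural progenitor, 5 for border and crest, 4 for other TALE, 0 for Gli and Glis, 2 for endoderm and 1 for trophoblast, and the lower counts were 0 for neural progenitor, 1 for border and crest, 1 for forebrain and midbrain, 1 for neuron, 0 for mesoderm, 0 for endoderm and 0 for trophoblast. With a pseudocount of 1, the higher counts were 2 for Gli and Glis and 3 for endoderm, and the lower counts were 1 for neural progenitor, 1 for forebrain and midbrain, 0 for endoderm and 0 for trophoblast.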
